A study of Mus musculus with 6 samples.

Results

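A set of 10 genes of the neutrophil were followed lung by lung in mouse fetal lungs that overexpressed Foxf1: Mpo, Elane and Prtn3 of the primary granules, Ltf, Lcn2, Camp and Ngp of the secondary granules, and S100a8, S100a9 and Stfa1, whose proteins lie in the cytosol. The genes were picked with their difference between these same lungs already known, so their values are given below as a description, with no test of their own. The array annotation gave 15 of the 45281 probes to the 10 genes, out of 19057 named genes. Of these 15 probes, 9, for 8 genes, were detected well enough to enter the comparison, beside 20118 probes and 11080 named genes in all. No tested probe stood for Mpo or Elane.

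The samples were whole lungs at embryonic day 18.5 (E18.5), 3 from R26Foxf1; Tie2-cre embryos (labelled ROSA26Foxf1:Tie2-cre) and 3 from R26-LSL-Foxf1 control embryos (labelled ROSA26-LSL-Foxf1), each hybridized to an Illumina mouse WG-6 v2.0 BeadChip. Both groups carried a Foxf1 cDNA knocked into the ROSA26 locus behind a floxed stop cassette, in 1 copy in the Tie2-cre embryos. Controls kept the stop, whereas Tie2-cre, a Tek-cre transgene, removes it in endothelial and hematopoietic lineages, neutrophils and their precursors among the latter. The labels call the lungs of each group biological replicates, and nothing in them says which lungs shared a litter or a chip, although the study describes its array controls as littermates. Below, the groups are called Tie2-cre lungs and control lungs, and lungs are named by their replicate numbers, which were not taken as pairs.

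Neutrophils pack their antimicrobial proteins into granules that are made one after another as the cell matures. Promyelocytes transcribe the genes of the primary (azurophil) granules, myelocytes and metamyelocytes those of the secondary (specific) granules, and the mature cell holds large amounts of the S100A8/S100A9 complex in its cytosol. In the mouse fetus such cells come mainly from the liver and circulate to the lung, so whole-lung RNA can include that of neutrophils held in the vessels and tissue. Which cells of these lungs gave the signals of the 10 genes was not tested. In RNA of a whole organ, fewer cells of a type and less RNA per cell cannot be told apart.

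Promoter windows of 4 of the genes are shown first, because genes of 1 maturation stage are known to share regulators: C/EBP factors at secondary granule genes, and PU.1, an ETS factor, with others at primary granule genes. The windows are RefSeq's, on GRCm38.p6, and run from 250 bases before to 50 bases after the annotated start, 300 bases in all, 5′ to 3′ on the strand of the gene. Lcn2, S100a8 and Stfa1 were the genes whose groups of lungs did not overlap, and Prtn3 was the tested gene with a higher mean in the Tie2-cre lungs. Capitals mark matches on either strand to a C/EBP core, TTGCNNAA (N is any base), and to an ETS-type core, GAGGAAG.
Lcn2 (chr2:32387690-32387989, minus strand): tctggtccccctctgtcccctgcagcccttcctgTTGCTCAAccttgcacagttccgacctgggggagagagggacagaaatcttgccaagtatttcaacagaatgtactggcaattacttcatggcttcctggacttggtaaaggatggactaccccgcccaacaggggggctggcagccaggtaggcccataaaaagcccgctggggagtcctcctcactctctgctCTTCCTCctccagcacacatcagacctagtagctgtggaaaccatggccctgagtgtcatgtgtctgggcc
S100a8 (chr3:90668821-90669120, plus strand): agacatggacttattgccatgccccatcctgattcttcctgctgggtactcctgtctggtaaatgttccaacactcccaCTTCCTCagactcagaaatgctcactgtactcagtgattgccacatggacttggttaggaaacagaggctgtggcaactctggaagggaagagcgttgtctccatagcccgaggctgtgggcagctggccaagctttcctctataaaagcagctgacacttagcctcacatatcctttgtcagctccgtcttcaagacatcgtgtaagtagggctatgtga
Stfa1 (chr16:36276898-36277197, plus strand): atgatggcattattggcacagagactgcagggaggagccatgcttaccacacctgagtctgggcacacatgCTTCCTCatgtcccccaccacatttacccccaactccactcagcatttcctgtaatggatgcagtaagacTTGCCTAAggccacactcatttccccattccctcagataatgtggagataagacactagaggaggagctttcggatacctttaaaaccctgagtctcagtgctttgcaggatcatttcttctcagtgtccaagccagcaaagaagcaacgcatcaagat
Prtn3 (chr10:79879417-79879716, plus strand): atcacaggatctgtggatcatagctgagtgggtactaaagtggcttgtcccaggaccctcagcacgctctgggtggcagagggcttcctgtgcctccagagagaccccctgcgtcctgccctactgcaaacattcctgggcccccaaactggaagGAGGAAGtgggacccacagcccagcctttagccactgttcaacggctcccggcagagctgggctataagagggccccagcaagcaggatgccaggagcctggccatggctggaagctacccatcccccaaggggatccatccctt
All 10 genes had a window. The C/EBP core lay in the windows of 5 of 7 secondary granule and cytosolic genes (Lcn2, S100a9, Ltf, Stfa1 and Ngp, with 2 matches in Ngp) and of 0 of 3 primary granule genes. Of all 32851 mouse promoter windows of this length, 10.8% held it. The Lcn2 match began 216 bases, the Stfa1 match 109 bases and the Ltf match 75 bases before the start. A looser form, TTNCNNAA, which contains the first, matched in 6 of 7 and 0 of 3 windows, against 40.7% of all windows. The ETS-type core lay in 3 of 3 primary granule windows, beginning 95 bases before the start in Prtn3 and 85 bases before it in Elane, and in 3 of 7 others (Lcn2, S100a8 and Stfa1), against 13.6% of all windows. Extended to GAGGAAGT, it was in 3 of 3 primary granule windows and in 1 of 7 others, S100a8, against 3.2%. TATAAA was found in 2 of 7 secondary granule and cytosolic windows and 0 of 3 primary granule windows (13.6% of all), and the RUNX-type core ACCACA in 3 of 7 and 0 of 3 (16.8% of all). A match to such short letters is a description of the window and not a binding site, and no binding was measured here.

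Signals were background-corrected, put on a log2 scale and quantile normalized, so a difference of 1 is a 2-fold change. A probe counted as detected in a lung at a detection p under 0.01, was tested when detected in at least 3 of 6 lungs, and was called deregulated where limma gave a change of 1.2-fold or more with an adjusted p (Benjamini-Hochberg) below 0.05. Between 19831 and 20043 probes were detected per lung. Levels of the surfactant gene Sftpc (14.18 to 14.44) and the club cell gene Scgb1a1 (14.04 to 14.72) were high in all 6 lungs, matching the lung label. Foxf1 itself had log2 signals of 10.93, 10.77 and 10.83 in Tie2-cre lungs 1, 2 and 3 and of 10.68, 10.15 and 10.77 in control lungs 1, 2 and 3. The difference was 0.31 (SE 0.17, limma adjusted p = 0.285), in groups that did not overlap. Whether its probe lies within the knocked-in cDNA was not checked. Tie2-cre lung 3 differed in sex from the rest, with log2 signals of Xist, the RNA of the inactive X chromosome, at 4.41 against 11.87 to 12.69 in the other lungs. Eif2s3y, a Y-linked gene, was detected in Tie2-cre lung 3 alone, at 8.96. Control lungs 1 and 2 held thymocyte transcripts that were not detected in the other 4 lungs, such as Cd3g, a T cell receptor subunit, at 9.78 and 11.37 against 4.58 to 5.19. Over the whole array limma called 908 of 20118 probes (4.51%), 420 of them lower (2.09%) and 488 higher in the Tie2-cre lungs. With cyclic loess scaling 434 of 1122 called probes were higher.

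The secondary granule and cytosolic genes had lower mean signals in the Tie2-cre lungs, by 1.27- to 2.39-fold over 8 probes, and Prtn3 a slightly higher one. None of the 9 tested probes was called by limma (0 of 9, against 4.51% of the array in either direction and 2.09% lower). With p below 0.05 before adjustment and the same fold limit the count was 5 of 9, against 24.9% of the array in either direction and 11.5% lower. By the methods' t-test with adjustment, 0 of 9 passed, against 0% of the array. All 3 Tie2-cre lungs lay below all 3 control lungs in 4 of 9 probes (Lcn2, S100a8 and both probes of Stfa1), against 13.4% of the array. As the genes were chosen from this contrast, these shares describe them and do not support a change. The median difference over the 8 secondary granule and cytosolic probes was -0.89, beside 0.03 over all tested probes.

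**Figure D1:**
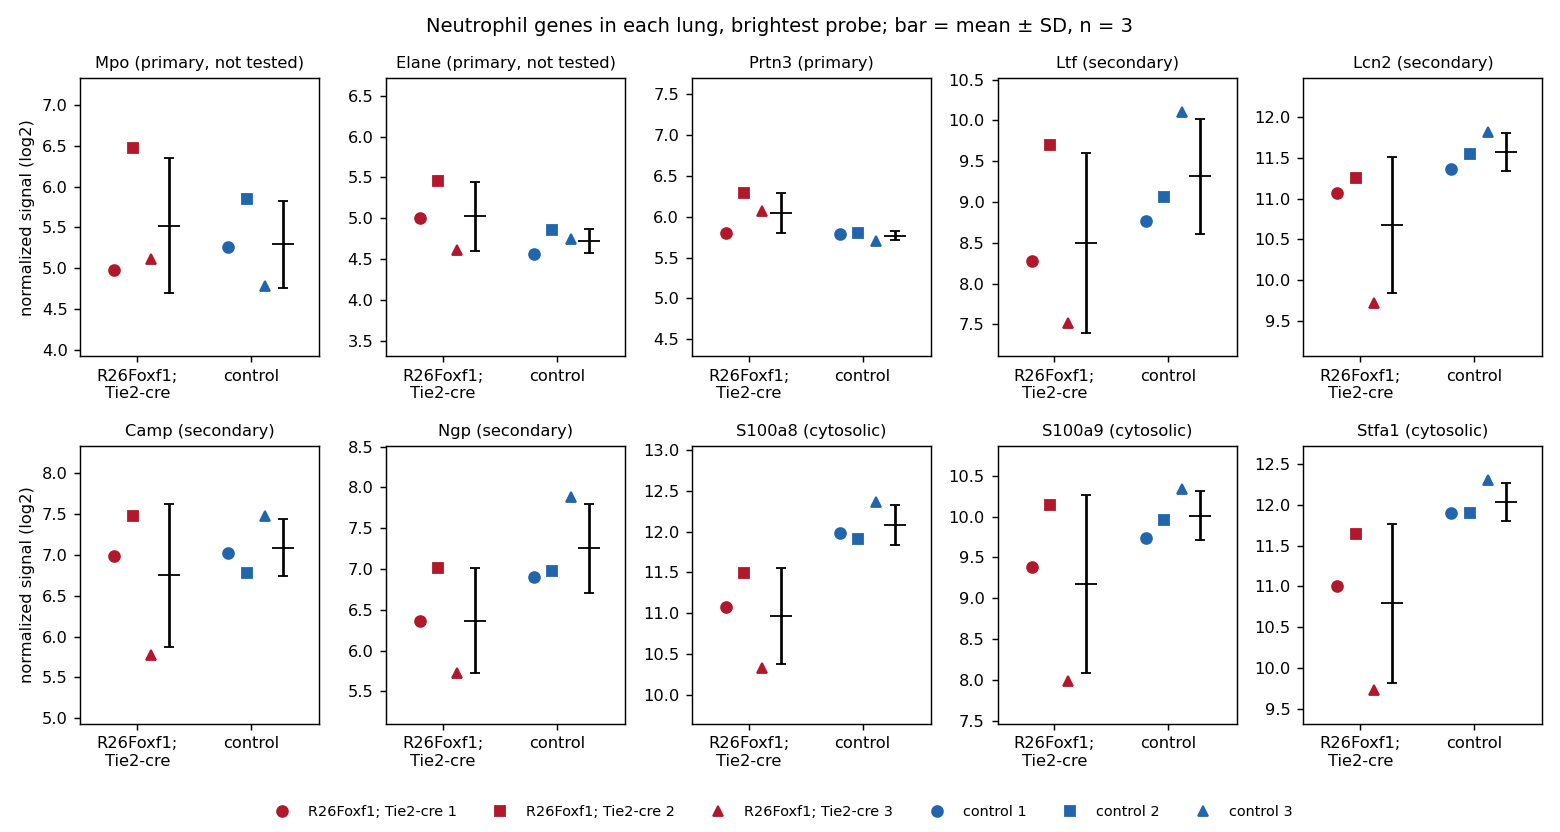
Normalized log2 signal of the brightest probe of each of the 10 genes (y axis, each panel spanning the same number of log2 units) in the 3 R26Foxf1; Tie2-cre and 3 control lungs, with group means ± SD (n = 3). Tie2-cre lung 3 is the lowest point in all 7 secondary granule and cytosolic panels, with 9.72 for Lcn2 against 11.07 to 11.82 in the other 5 lungs, and not in the Prtn3 panel.

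The primary granule genes were at or near background. Mpo encodes myeloperoxidase, which makes hypochlorous acid in the phagosome. Its brightest probe read 4.98, 6.47 and 5.12 in Tie2-cre lungs 1 to 3 and 5.25, 5.85 and 4.78 in control lungs 1 to 3. The next probe of Mpo read 4.61, 6.09 and 4.44 against 4.69, 5.89 and 4.91. Both were detected only in Tie2-cre lung 2 and control lung 2, 1 lung of each group, and the other 2 Mpo probes in no lung. Elane encodes neutrophil elastase, a serine protease. It was detected in Tie2-cre lung 2 alone, where it read 5.46, with 4.57 to 5.01 in the other 5 lungs. No fold change is given for Mpo and Elane, since most of their values are not above background.

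Prtn3, for proteinase 3, is the neighbour of Elane in the genome and was the only tested primary granule gene, detected in all 6 lungs. It read 5.80, 6.29 and 6.07 in Tie2-cre lungs 1 to 3 and 5.80, 5.81 and 5.71 in the control lungs. The groups touched, with Tie2-cre lung 1 below control lung 2 and the other two Tie2-cre lungs above every control. The mean was 1.22-fold higher in the Tie2-cre lungs (difference 0.28, SE 0.14). Tie2-cre lung 2 was the highest of the 6 lungs for Prtn3, Elane and both detected Mpo probes. Without that lung the Prtn3 difference was 0.17, and without Tie2-cre lung 1 it was 0.41.

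Among the secondary granule genes, Lcn2 encodes lipocalin 2, which binds bacterial siderophores and is also made by epithelial cells. It read 11.07, 11.25 and 9.72 in Tie2-cre lungs 1 to 3 and 11.36, 11.54 and 11.82 in the controls. All 3 Tie2-cre lungs lay below all 3 controls, lungs 1 and 2 by little and lung 3 by much more. Its mean was 1.86-fold lower (difference -0.89, SE 0.37), and without Tie2-cre lung 3 the difference was -0.42.

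Ltf encodes lactoferrin, the iron-binding protein of these granules. Its detected probe read 8.27, 9.69 and 7.52 in the Tie2-cre lungs and 8.77, 9.07 and 10.11 in the controls, and its other probe was detected in no lung. The groups overlapped, since Tie2-cre lung 2 exceeded control lungs 1 and 2. Mean Ltf signal was 1.76-fold lower (difference -0.82, SE 0.56). The difference moved to -0.33 without Tie2-cre lung 3, to -0.42 without control lung 3 and to -1.42 without Tie2-cre lung 2.

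Ngp encodes neutrophilic granule protein, a cystatin-fold protein related to the cathelicidin, and lies on chromosome 9, as Camp and Ltf do. It read 6.36, 7.02 and 5.72 against 6.90, 6.98 and 7.88. Tie2-cre lung 2 lay just above control lungs 1 and 2, and control lung 3 well above every other lung. The mean was 1.85-fold lower (difference -0.89, SE 0.37). It was -0.57 without Tie2-cre lung 3 and -0.57 without control lung 3.

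Camp, for the cathelicidin antimicrobial peptide, read 6.99, 7.48 and 5.78 against 7.03, 6.77 and 7.47. Tie2-cre lung 2 was the highest of all 6 and Tie2-cre lung 3 the lowest, so the groups overlapped throughout. The mean was 1.27-fold lower (difference -0.34, SE 0.41), and without Tie2-cre lung 3 the sign turned, to 0.15. It was -0.15 without control lung 3 and -0.71 without Tie2-cre lung 2.

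S100a8 and S100a9, neighbours on chromosome 3, encode the calcium- and zinc-binding subunits of calprotectin. S100a8 read 11.08, 11.50 and 10.33 in Tie2-cre lungs 1 to 3 and 11.98, 11.91 and 12.36 in the controls. No Tie2-cre lung reached the lowest control. In the deposited signal, which the authors had background-subtracted and scaled to a common mean, the same lungs read 2260, 2964 and 1277 units against 3948, 3869 and 4975. Mean S100a8 was 2.17-fold lower (difference -1.12, SE 0.28), and -0.80 without Tie2-cre lung 3.

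S100a9 read 9.39, 10.14 and 7.99 against 9.74, 9.96 and 10.33. Unlike S100a8 its groups overlapped, as Tie2-cre lung 2 exceeded control lungs 1 and 2. The mean was 1.79-fold lower (difference -0.84, SE 0.48). Without Tie2-cre lung 3 the difference was -0.25, and without Tie2-cre lung 2 it was -1.32. No test compared the S100a8 and S100a9 differences.

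Stfa1 encodes stefin A1, a cytosolic inhibitor of cysteine proteases. Its brighter probe read 11.004, 11.64 and 9.73 in the Tie2-cre lungs and 11.90, 11.90 and 12.30 in the controls, and its dimmer probe 10.83, 11.40 and 9.68 against 11.83, 11.69 and 12.16. Both probes put every Tie2-cre lung below every control lung, with Tie2-cre lung 2 the closest to the controls. Their means were 2.37- and 2.39-fold lower (differences -1.24, SE 0.43, and -1.26, SE 0.39). Without Tie2-cre lung 3 the differences were -0.71 and -0.78. Stfa1 belongs to a cluster of closely similar stefin A genes on mouse chromosome 16, and probe sequences were not used here to tell them apart, so the signal may include Stfa2 and its relatives. The probe of Stfa2 read 9.98, 10.57 and 8.64 against 10.55, 10.70 and 10.94.

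**Figure D2:**
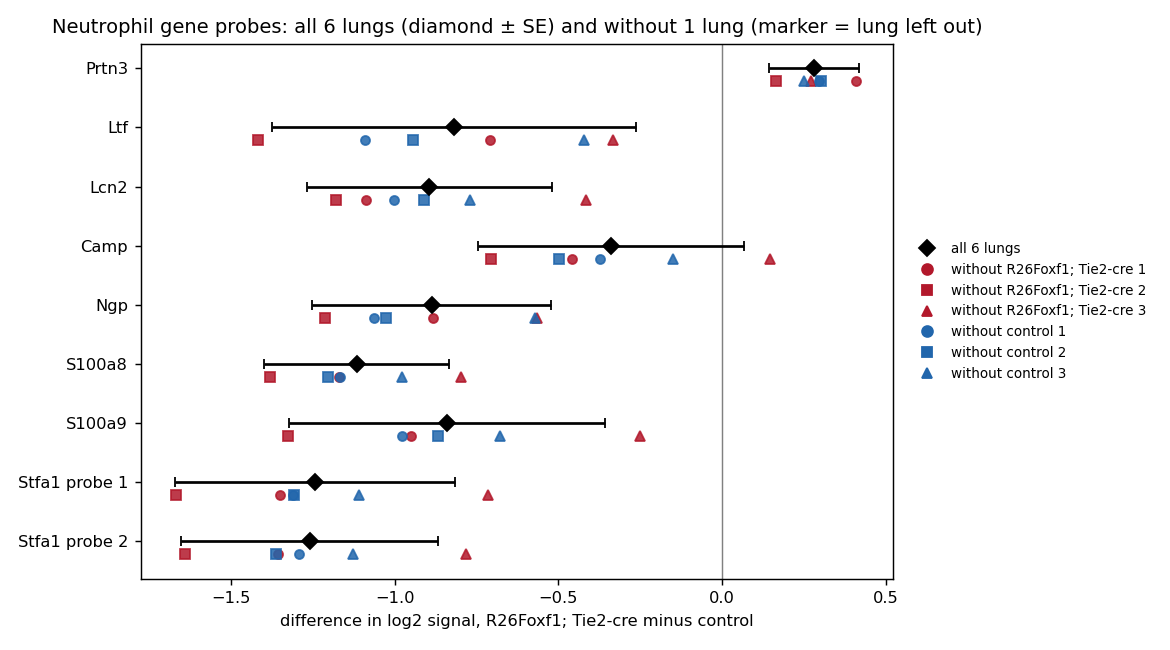
Difference in mean log2 signal (x axis, R26Foxf1; Tie2-cre minus control) for the 9 tested probes, with all 6 lungs (diamonds ± SE from limma) and with 1 lung left out (small markers, shape and colour naming the lung left out). Leaving out Tie2-cre lung 3 gives the difference closest to zero, or above it, for all 8 secondary granule and cytosolic probes, and for Camp it crosses zero to 0.15.

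These 8 probes shared their extremes more than the order of the lungs between them. Tie2-cre lung 3 was the lowest of the 6 in 8 of 8, whereas it was the lowest in 17.0% of all tested probes. Control lung 3 was the highest in 7 of 8 (20.5% of all probes), and Tie2-cre lung 2 in Camp. Averaged over the 4 secondary granule genes, Tie2-cre lungs 1, 2 and 3 stood -0.64, 0.05 and -1.62 from the control mean, and control lungs 1, 2 and 3 stood -0.29, -0.22 and 0.51 from it. For the 3 cytosolic genes these values were -0.89, -0.29 and -2.03 in the Tie2-cre lungs and -0.17, -0.12 and 0.29 in the controls. Tie2-cre lung 2 thus lay within the range of the controls for the secondary granule genes and just below it for the cytosolic ones.

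The spread among the Tie2-cre lungs was wide. The SD of the 8 probes ranged from 0.59 to 1.10 with a median of 0.88, against a median of 0.14 over all tested probes, and 8 of 8 exceeded the 90th percentile of the array (0.32). Among the controls the SDs had a median of 0.27, against 0.14 over the array, and 3 of 8 exceeded the 90th percentile (0.33). Tie2-cre lung 3, the lung with the lowest values, was also the only one without Xist, and the part of sex in its values was not tested.

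The non-member genes whose profile over the 6 lungs came closest to the mean profile of the 8 tested genes were, by Pearson correlation, Junb (0.99), Cblif (0.99), Armc3 (0.98), Retnlg (0.98), Rtn1 (0.98), Hc (0.98), Gimap8 (0.98), Nptn (0.98), Fam13c (0.98) and Ttc36 (0.97). With 6 lungs and 11080 genes searched, such values are a description. None of the 10 was called. Retnlg, which encodes a resistin-like protein of mouse neutrophils, read 7.40, 8.57 and 6.42 in the Tie2-cre lungs and 8.48, 8.13 and 8.86 in the controls, with Tie2-cre lung 3 again lowest and control lung 3 highest (difference -1.03, SE 0.48, adjusted p = 0.225). Junb, a subunit of the AP-1 transcription factor, followed the same order over a narrower range, from 9.57 in Tie2-cre lung 3 to 10.23 in control lung 3. Of the tested genes themselves, S100a9 lay closest to their mean profile (0.99), the other secondary granule and cytosolic genes between 0.91 and 0.97, and Prtn3 at -0.19.

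Other genes of the neutrophil, listed from general knowledge with earlier results of these data in view, were tested with p adjusted over all 20118 probes, each gene by its brightest tested probe. Of 67 such genes 61 had a probe and 40 were tested. Of these 4 fell and 0 rose in the Tie2-cre lungs, against 1.44% of all genes lower and 1.54% higher. Trem3 and Il1b, among the 4, were detected in the controls alone. They entered the test only through the group where they were high, so their calls carry no support for a change. With p below 0.05 before adjustment and the fold limit the count was 15 of 40, against 20.4% of all genes in either direction, and the methods' t-test called 0. Means were lower in 36 of 40, with a median difference of -0.46 beside 0.05 over all genes, of which 42.3% had a lower mean. Lower means were also found in 9 of 9 tested pan-leukocyte and 8 of 8 tested epithelial markers, and in 2 of 6 tested endothelial markers. Which cells of the lung gave the signals of the 40 genes was not tested.

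The 4 genes that fell were all among the 13 tested receptors and adhesion genes, and the fourth by size, Pilra, was named after its values were seen. Fpr2, a formyl peptide receptor by which neutrophils sense bacterial products, read 9.60, 9.76 and 9.11 in the Tie2-cre lungs against 10.48, 10.37 and 10.53 in the controls (difference -0.97, SE 0.17, adjusted p = 0.0387). Pilra, an inhibitory receptor of myeloid cells, read 7.78, 8.10 and 7.82 against 8.57, 8.65 and 8.68 (difference -0.73, SE 0.12, adjusted p = 0.0337). By these probes neither gene's groups overlapped, and here Tie2-cre lung 3 stood no further from the controls than lung 1 for Pilra. A dimmer probe of Pilra had groups that overlapped and was not called (difference -0.62, SE 0.22, limma adjusted p = 0.137). It read 5.78, 5.55 and 5.24 in the Tie2-cre lungs against 6.28, 5.67 and 6.46 in the controls. The remaining probe of Pilra was detected in no lung.

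Trem3, a TREM receptor of mouse myeloid cells, was detected in all 3 controls, at 5.93, 5.89 and 5.95, and in no Tie2-cre lung. It was at least 1.46-fold lower, taking the lowest detected signal of each Tie2-cre array as the bound (adjusted p = 0.0294). Il1b, the cytokine interleukin 1 beta, was likewise detected in the controls alone, at 6.13, 5.80 and 5.63, and was at least 1.39-fold lower (adjusted p = 0.0384). Trem3 and Il1b were tested only because the controls detected them. With no filter on dim probes their limma adjusted p were 0.0568 and 0.0728. Selplg, the ligand that lets neutrophils roll on selectins, fell by its dimmer probe (difference -1.26, SE 0.22, adjusted p = 0.0387), while its brighter probe gave -1.10 (SE 0.28, adjusted p = 0.068). The dimmer probe read 5.68, 5.63 and 5.18 in the Tie2-cre lungs and 6.90, 7.08 and 6.30 in the controls, highest in control lungs 1 and 2, the lungs with thymocyte transcripts. Selplg was named after its values were seen. Its dimmer probe passed in 2 of 6 fits with a lung left out, that without control lung 2 and that without control lung 3. Among these fits the brighter probe passed only without control lung 3, which leaves the 2 controls with thymocyte transcripts. Without Tie2-cre lung 1, without Tie2-cre lung 3 or without control lung 1, 0 of the 4 genes passed. Without Tie2-cre lung 2 or control lung 2 all 4 did, and without control lung 3 none of them did.

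Among the other lists of neutrophil genes no gene passed by its brightest probe, and the 2 largest differences of each are given. Genes named beside these, Hp, Ctsg, Ms4a3, Cebpe and Per3, were chosen after their values were seen. Of 10 tested genes of secondary and tertiary granules, Lyz2, for lysozyme, read 12.57, 13.35 and 12.02 against 13.80, 13.49 and 13.92 (difference -1.09, SE 0.31, adjusted p = 0.0816), with groups that did not overlap. Chil3, the chitinase-like protein Ym1, gave -1.08 by its brightest probe (SE 0.44, adjusted p = 0.171), and Tie2-cre lung 3 was the only lung in which that probe was not detected. A dimmer probe of Chil3, detected in 1 of 3 Tie2-cre lungs and all 3 controls, gave -0.51 (SE 0.32, adjusted p = 0.350). The remaining Chil3 probe was detected in 1 control lung alone. Probes of Hp, for haptoglobin, disagreed: its brightest probe gave -0.12 (SE 0.12), and the other two gave -0.99 (SE 0.19, adjusted p = 0.0414) and -0.96 (SE 0.18, adjusted p = 0.0413). With a lung left out, both passed in 1 of 6 fits, that without control lung 2. Of the 2 tested primary granule genes beside Prtn3, Srgn, the core protein of the granule proteoglycan, gave -0.29 (SE 0.16, adjusted p = 0.282) and Ctsc, the protease that activates granule serine proteases, 0.02 (SE 0.09, adjusted p = 0.885). Ctsg, for cathepsin G, and Ms4a3, a marker of granulocyte precursors, were detected in no lung.

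In the 4 tested stefin A and S100 relatives, Stfa2 gave -0.995 (SE 0.43, adjusted p = 0.193) and S100a6 -0.51 (SE 0.20, adjusted p = 0.161). Of 11 tested transcription factors of granulocytes, Gfi1, a repressor needed for neutrophil maturation, gave -1.27 (SE 0.65, adjusted p = 0.258). It read 6.93 and 8.23 in control lungs 1 and 2, the lungs with thymocyte transcripts, and 5.21 to 5.67 in the other 4 lungs. Cebpa, the factor that starts granulocyte development, read 8.04, 8.41 and 8.34 against 9.08, 8.56 and 9.27 (difference -0.71, SE 0.19, adjusted p = 0.0782). Cebpe, which drives secondary granule genes, was detected by a single probe and in control lung 3 alone. It read 5.90 there, near the lowest detected signal of that array (5.34). The other probes of Cebpe were detected in no lung. A dimmer probe of Per3 rose (difference 0.82, SE 0.14, adjusted p = 0.0378) and its brighter one gave -0.12 (SE 0.13), another pair of probes that disagreed. That call held in 1 of 6 fits with a lung left out, the one without control lung 2.

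**Figure D3:**
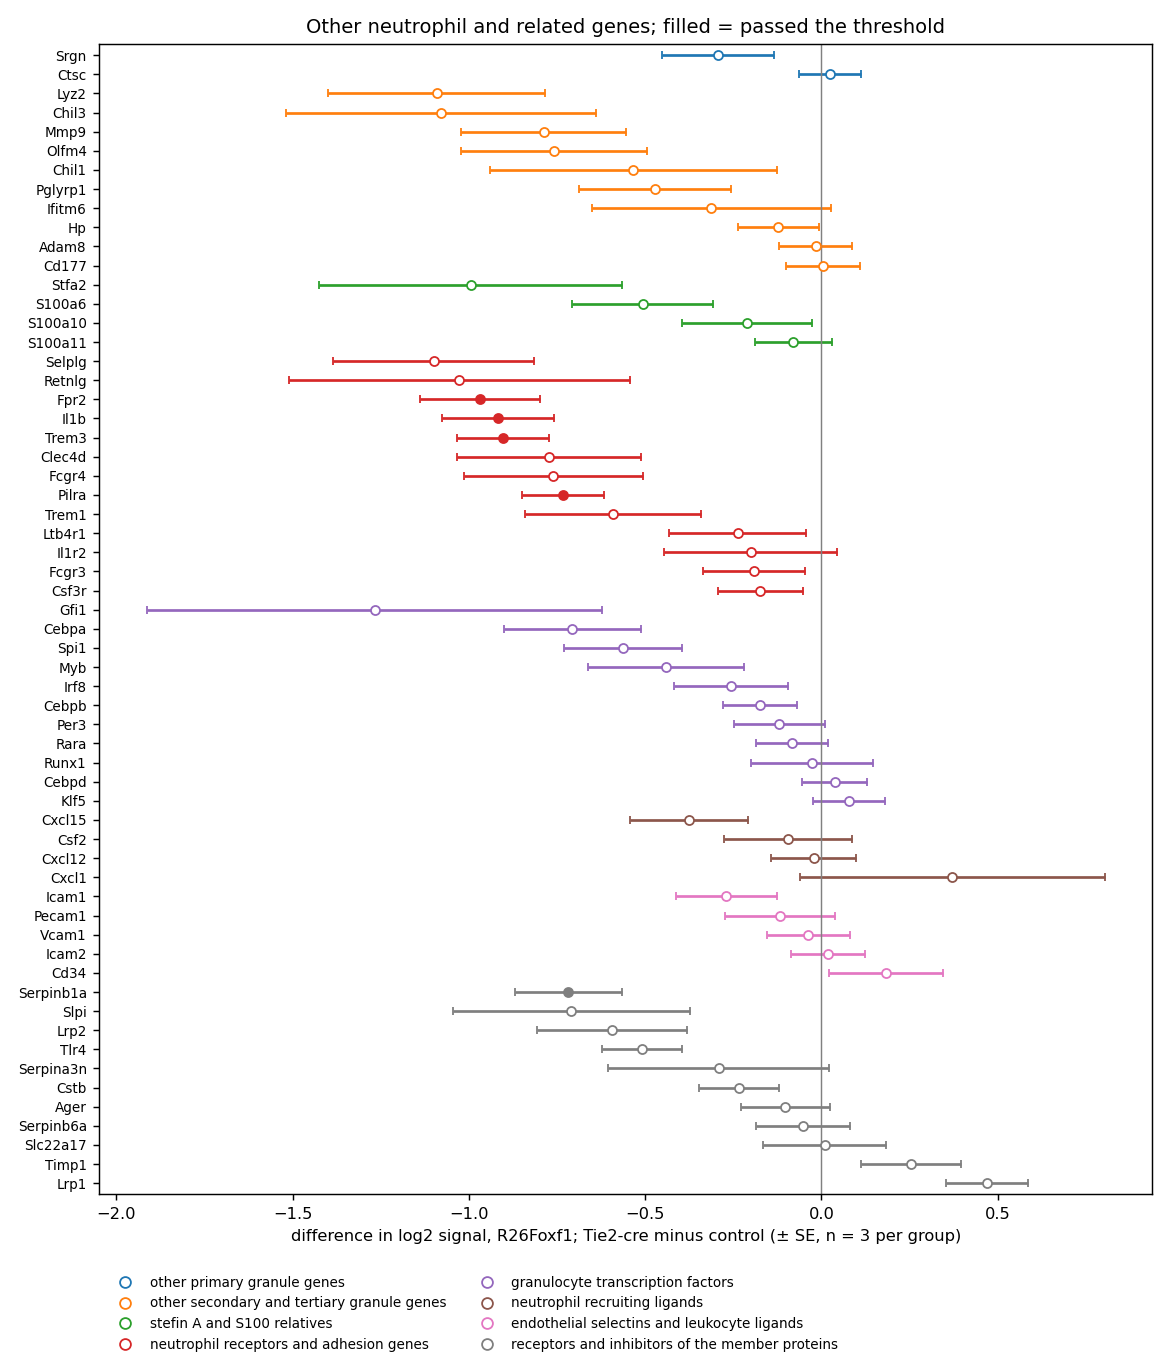
Difference in mean log2 signal (x axis, R26Foxf1; Tie2-cre minus control, ± SE from limma, n = 3 per group) for 60 tested genes of 8 lists, in rows by list and colour, filled where the gene passed the threshold. The 5 filled points (Fpr2, Il1b, Trem3, Pilra and Serpinb1a) lie between -0.97 and -0.72, and 50 of the 60 differences are below zero, as are 42.3% of those of all tested genes. Il1b and Trem3 were detected in the controls alone.

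Signals that bring neutrophils to the lung, and the partners of their proteins, were read from 3 further lists. Of 4 tested ligands none passed. Cxcl15, a chemokine of the lung epithelium known as lungkine, gave -0.38 (SE 0.17, adjusted p = 0.202), and Cxcl1, a ligand of the neutrophil receptor CXCR2, 0.37 (SE 0.43, adjusted p = 0.624). Of 5 tested endothelial selectins and leukocyte ligands none passed either, with Icam1, which binds leukocyte integrins, at -0.27 (SE 0.14, adjusted p = 0.273) and Cd34 at 0.18 (SE 0.16, adjusted p = 0.502). Of 11 tested receptors and inhibitors of the proteins above, 1 fell. This was Serpinb1a, an inhibitor of neutrophil elastase, cathepsin G and proteinase 3, which read 6.05, 6.51 and 6.00 against 6.83, 6.88 and 6.999 (difference -0.72, SE 0.15, adjusted p = 0.0458). It passed in 1 of 6 fits with a lung left out, that without Tie2-cre lung 2.

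Markers of other cells moved with some of these values. Of 9 tested pan-leukocyte markers 9 had a lower mean and Tyrobp, an adaptor of myeloid receptors, fell (difference -0.58, SE 0.10, adjusted p = 0.0386, passing in 1 of 6 fits with a lung left out, that without control lung 2). Of all genes 42.3% had a lower mean. Of 4 probes of Coro1a, an actin regulator of leukocytes, 2 dimmer ones fell (differences -1.57 and -1.26, adjusted p = 0.0387 and 0.0457), and the brightest gave -1.11 (SE 0.27, adjusted p = 0.0605). The brightest Coro1a probe was highest in control lungs 1 and 2, at 11.53 and 12.12, with 11.001 in control lung 3. The mean of the list stood -0.81, -0.50 and -0.72 from the control mean in Tie2-cre lungs 1, 2 and 3, and at 0.01, 0.25 and -0.26 in the control lungs, so that the order of the lungs was not that of the granule genes. Coro1a and Ptprc were named after their values were seen. All 4 probes of Ptprc, which encodes the leukocyte antigen CD45, were detected in no lung. The 10 tested macrophage and monocyte markers, of which 0 passed, stood at -0.28 to -0.04 in the Tie2-cre lungs and -0.02 to 0.01 in the controls. The largest differences among them were those of Ccr2, a chemokine receptor of monocytes (0.60, SE 0.16, adjusted p = 0.0732), and of Marco, a scavenger receptor of macrophages, which was detected in the controls alone and was at least 1.11-fold lower (adjusted p = 0.0996). Eosinophil, basophil and mast cell markers (0 of 6 passed) stood at -0.53, 0.51 and -0.24 in Tie2-cre lungs 1 to 3, with -0.23 to 0.12 in the controls. Hdc, for histidine decarboxylase, gave -0.34 by its brightest probe (SE 0.14, adjusted p = 0.183), while a dimmer probe fell (-0.85, SE 0.18, adjusted p = 0.0484, passing in 1 of 6 fits with a lung left out). Kit, a receptor of mast cells and progenitors, gave 0.26 (SE 0.12, adjusted p = 0.203). Platelet markers (0 of 6 passed) read -0.53, 0.04 and -0.82, with -0.36, 0.02 and 0.34 in control lungs 1 to 3, the order of the 6 lungs in the secondary granule genes. Among them the chemokine genes Ppbp and Pf4 gave -1.12 (SE 0.44, adjusted p = 0.155) and -0.77 (SE 0.18, adjusted p = 0.053).

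Of 8 tested epithelial markers 8 had a lower mean and Krt17, a keratin of basal epithelial cells, fell (difference -3.23, SE 0.70, adjusted p = 0.0483, passing in 1 of 6 fits with a lung left out, that without Tie2-cre lung 2). Krt17 was detected in all 3 controls and in 1 of 3 Tie2-cre lungs, lung 2 at 7.37, with background values of 4.57 and 5.00 in lungs 1 and 3. The controls alone met the detection limit, so the call carries no support for a change, and the size of the difference rests on background values. The mean of the list stood at -0.69, -0.22 and -0.84 in Tie2-cre lungs 1 to 3, and at -0.03 to 0.04 in the controls, with Krt17 carrying most of it. Over the other 7 genes it stood at -0.18, -0.04 and -0.40 in the Tie2-cre lungs and at -0.12 to 0.08 in the controls. The median difference of the list was -0.21. Erythroid markers (0 of 3 passed) stood at -0.24 to -0.10 in the Tie2-cre lungs and -0.24 to 0.35 in the controls, with Alas2 at -0.46 (SE 0.28, adjusted p = 0.327) and Slc4a1 at -0.17 (SE 0.19, adjusted p = 0.607). Endothelial markers (0 of 6 passed) stood at 0.00 to 0.14 and at -0.12 to 0.09, with Tie1 at 0.38 (SE 0.10, adjusted p = 0.0784) and Cldn5 at 0.14 (SE 0.12, adjusted p = 0.492). In control lungs 1 and 2, 6 of the 11 thymocyte and lymphocyte genes with a probe (Cd3e, Cd3g, Cd4, Cd8b1, Ptcra and Rag1) had a probe detected in both lungs and in no other. The 2 tested genes of that list, Cd8b1 (0.32, SE 0.10, adjusted p = 0.107) and Cd79b (0.07, SE 0.13, adjusted p = 0.786), with a mean at -0.07 to 0.06 in the controls and 0.10 to 0.36 in the Tie2-cre lungs, did not pass. Probes of Cd8b1 disagreed, as the tested one read 11.31 to 11.80 in all 6 lungs. Its other probes read 11.07 and 12.04, and 7.87 and 8.95, in control lungs 1 and 2, and 4.43 to 4.98 elsewhere. The list mean thus rests in part on a probe that does not follow the thymocyte transcripts. Without control lungs 1 and 2 the differences of the 8 secondary granule and cytosolic probes rest on control lung 3 alone and ranged from -1.61 to -0.72, with 0.35 for Prtn3, and 0 probes of the array were called in a fit that takes the lone control to vary like the Tie2-cre lungs. The part of these other cells in the values of the neutrophil genes was not tested.

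**Figure D4:**
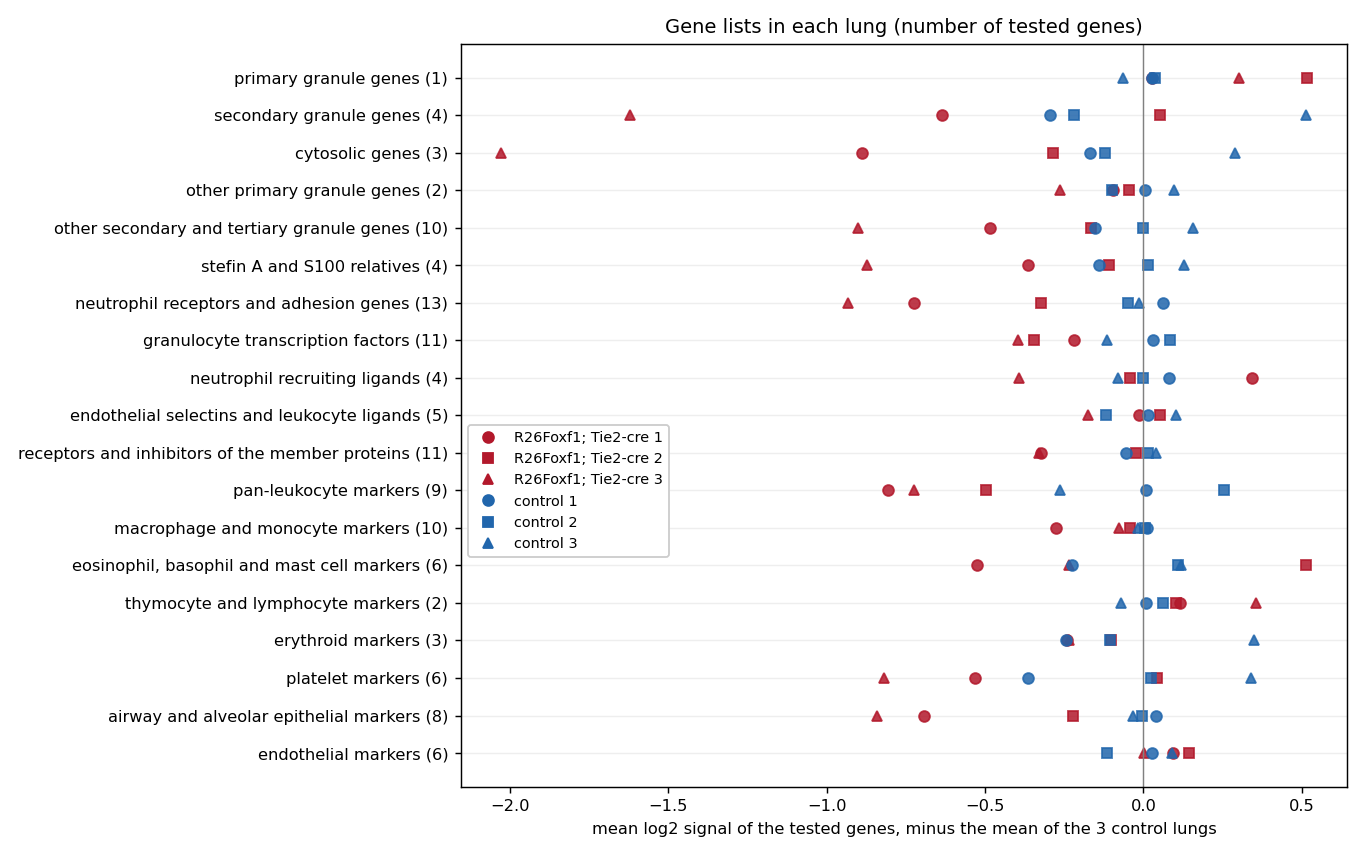
Mean log2 signal of the tested genes of each list (number in brackets, brightest tested probe) in each lung, minus the mean of the 3 control lungs (x axis), for the 10 neutrophil genes by stage, other neutrophil lists and marker lists of other cells. The secondary granule and cytosolic genes span the widest range, with Tie2-cre lung 3 at -1.62 and -2.03, while the macrophage and monocyte markers of all 6 lungs lie between -0.28 and 0.01. The thymocyte and lymphocyte row rests on Cd79b and on Cd8b1, whose probes disagreed.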

How the data were processed

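RNA of 6 whole lungs, 3 R26Foxf1; Tie2-cre and 3 controls, was measured, and every array was used. The authors deposited a background-subtracted signal (intensity) per probe, scaled to a common mean in every lung (25.5% to 28.5% of values below 0), with a detection p-value against the negative control probes. They also deposited values on a log2-like scale after robust spline normalization and variance stabilization, used here as an alternative. The signals were processed in R 4.3.3 with limma 3.58.1: neqc, with the background taken from the detection p-values, an offset of 16, log2 and quantile normalization. Probes detected (p below 0.01) in 3 or more of the 6 lungs were fitted with lmFit and eBayes, without a replicate block, and adjusted by Benjamini-Hochberg over 20118 probes. No limit on precision other than the 3 lungs per group can be given for arrays.

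Of the probes, 34885 had 1 gene symbol, 18 several and 10378 none, and 34807 were matched by gene ID to GRCm38.p6 names. The 10 genes, the lists (195 genes, 174 with a probe) and the tests were chosen with earlier results of these data known. The genes named are all probes of the 10 genes, Foxf1, in each list up to 3 lower and 3 higher genes past the threshold or the 2 with the largest difference where none passed, and the 10 genes closest in profile. Other genes are checks of tissue, sex or thymocytes, or are said to have been named after their values were seen. The alternatives were signals without background correction, cyclic loess or median scaling, the deposited values, no filter or detection in all 6 lungs, no fold limit, the methods' t-test, a variance trend with robust moderation, the replicate number as a block, gene means over probes, and each lung left out. The methods' t-test was run on the main values of this report, not on the study's normalization. Leaving out control lungs 1 and 2 together was added after seeing the data.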

Additional observations from a re-analysis of the deposited data

How the results depend on the processing

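Over the whole array the count of called probes, 908, rested on the setting: it was 58 with no filter on dim probes, 1860 with a variance trend and robust moderation, 0 by the methods' t-test, 46 with the replicate number as a block, and between 2 and 1703 with 1 lung left out (2 without Tie2-cre lung 3, 17 without Tie2-cre lung 1 or control lung 1, 92 without control lung 3, 358 without Tie2-cre lung 2, 1703 without control lung 2). It was 0 without control lungs 1 and 2. Of the 10 genes' 9 probes 1, S100a8, was called with no background correction (difference -1.11), and 0 under every other setting. In the 11 settings that change the values, 98 of 99 differences of these probes kept their direction and 1 reversed (Camp without Tie2-cre lung 3, 0.15, with a range down to -0.71 without Tie2-cre lung 2). All 99 come from the same probes and lungs, in genes picked from this contrast. Their agreement in direction is therefore no independent support. The 5 other neutrophil and related genes called became 2 with the deposited values (Fpr2 and Pilra), 1 with the mean of a gene's probes (Trem3), 0 with no filter, 0 by the methods' t-test, 0 with the replicate block, 0 without control lungs 1 and 2, and 0 to 7 with 1 lung left out. Why these counts moved was not tested. Lungs of the same number correlated at 0.29, -0.04 and -0.03 in their deviations from the group means, so the replicate block rests on a number alone. With no filter, Mpo and Elane enter the fit, but at signals near background.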
